A study of Mus musculus with 84 samples.

Results

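A set of 7 genes widely used to mark neurons of the upper cortical layers were followed in neuronal nuclei of the mouse frontal cortex after a single injection of the psychedelic DOI. The 7 genes, chosen by symbol, were Cux1, Cux2, Pou3f2, Rorb, Mef2c, Rasgrf2 and Calb1. They are 7 of the 55401 gene IDs in the count files, and all 7 were among the 17941 genes with enough counts to be tested. The mice were 129S6/SvEvTac animals of 12 weeks, with no transgene named in the labels. They received vehicle, or DOI (2,5-dimethoxy-4-iodoamphetamine), an agonist of serotonin 2A receptors, and were sampled 24 h, 48 h or 7 days after it. Each group had RNA of 4 mice. Counts of a mouse's 2 libraries were added, which makes the mouse the replicate. The tissue was the part of the frontal cortex in front of bregma, all layers together, and nuclei were sorted for NeuN, a protein of neuronal nuclei. In such bulk samples fewer nuclei of a type and less RNA per nucleus cannot be told apart.

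Excitatory neurons of the cortex are born in an inside-out order, so the upper layers hold the latest-born neurons, which connect mainly to other cortical areas. Cux1 and Cux2 are homeodomain transcription factors of the Cut family that guide dendrite branching and synapse formation in these neurons, and Pou3f2 (Brn2) is a POU-domain factor that acts in their generation and migration. Rorb is a nuclear receptor that marks the granular layer, where thalamic input arrives. Mef2c is a MADS-box factor that responds to neuronal calcium signals and is also expressed outside the upper layers. Rasgrf2 is a calcium-regulated exchange factor that activates Ras and Rac, and Calb1 (calbindin) buffers calcium in upper-layer excitatory cells and in some interneurons.

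On the GRCm38 assembly, Calb1 lies on chromosome 4 from 15881264 to 15908064 on the plus strand and Pou3f2, a gene of 1 exon, from 22482780 to 22488366 on the minus strand of the same chromosome. Cux2 lies on chromosome 5 from 121856366 to 122050102 and Cux1 on chromosome 5 from 136248135 to 136567490, both on the minus strand. Mef2c lies on chromosome 13 from 83504034 to 83667080 on the plus strand, Rasgrf2 on chromosome 13 from 91880400 to 92131656 on the minus strand and Rorb on chromosome 19 from 18930605 to 19111196 on the minus strand.

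Only Cux2 and Rasgrf2 passed the test in these data, so the bases before their RefSeq start sites (GRCm38.p6) are printed, 5′ to 3′ on the minus strand, without bases that the count files place in an exon of the gene. Capitals mark matches to the motifs searched.
Cux2, start 1, chr5:122049852-122050015: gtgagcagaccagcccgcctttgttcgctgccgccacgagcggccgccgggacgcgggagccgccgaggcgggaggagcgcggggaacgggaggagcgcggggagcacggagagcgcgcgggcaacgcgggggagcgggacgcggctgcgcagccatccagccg
Cux2, start 2, chr5:122047892-122048075: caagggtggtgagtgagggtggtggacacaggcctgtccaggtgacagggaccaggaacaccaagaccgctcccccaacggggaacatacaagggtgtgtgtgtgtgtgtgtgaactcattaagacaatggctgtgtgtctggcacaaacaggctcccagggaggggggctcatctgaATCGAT
Rasgrf2, chr13:92131829-92132078: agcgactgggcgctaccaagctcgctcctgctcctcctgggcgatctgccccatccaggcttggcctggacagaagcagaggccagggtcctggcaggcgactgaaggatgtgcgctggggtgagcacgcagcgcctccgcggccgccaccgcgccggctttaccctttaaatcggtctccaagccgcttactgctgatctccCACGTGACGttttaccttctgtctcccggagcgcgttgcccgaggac

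Motifs were searched on both strands in the 250 bases before each start of 6 of the 7 genes, 10 windows in all, and in the same windows of all 32851 RefSeq starts in the table. No promoter entry was used for Calb1. The motifs were the TATA box TATAAA, the box spelled CCAAT, the E-box CACGTG, the CRE TGACGTCA and its short form of letters TGACG, the EGR site GCGTGGGCG, the octamer ATGCAAAT, the ROR site of letters AGGTCA and the Cut site ATCGAT. The window of Rasgrf2 held CACGTG (present in 6.02% of all windows) and TGACG (17.8%), which share bases with each other. The second Cux2 window held ATCGAT (0.728% of all windows), overlapping a TATAAA (12.4%) that runs on into an annotated exon and is not fully printed. The first Cux2 window held none of the motifs and was 80.0% G and C over its 250 bases, more than in 98.8% of all windows, against 55.2% for the second. CCAAT (33.8% of all windows) was found in windows of Pou3f2, Rorb and Mef2c, and TATAAA and the ROR site (14.0%) in windows of Mef2c. These are descriptions of the letters in these windows.

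Depth and RNA composition differed between the groups. Total counts were 9151680 to 11517452 in vehicle mice, 6441396 to 8090559 in 24 h mice, 5834248 to 7344355 in 48 h mice and 6972577 to 12354785 in 7-day mice. A count of 3 in a mouse corresponds to 0.254 to 0.502 CPM (counts scaled to library size with TMM factors). The least counted value among the 7 genes was 80 counts in a mouse, so depth did not limit their detection. The share of counts on an 18S ribosomal RNA pseudogene was 0.00694% to 0.0101% in vehicle mice, 0.328% to 1.57% at 24 h and 0.523% to 1.66% at 48 h. At 7 days it was 0.00835% and 0.00607% in mice 1 and 3 and 0.633% and 0.474% in mice 2 and 4. The mitochondrial share was 0.0171% to 0.0701% for vehicle, 0.0621% to 0.101% at 24 h and 0.108% to 0.268% at 48 h, and at 7 days 0.0413% and 0.0210% in mice 1 and 3 and 0.130% and 0.114% in mice 2 and 4. All 3 endothelial markers were near 0 (at most 24 counts in a mouse), while neuronal markers were present in every group. Glial markers were present in every group too. In vehicle mice, summed oligodendrocyte markers were 147.5 to 325.1 CPM, astrocyte markers 119.2 to 157.4 CPM and microglia markers 68.6 to 106.4 CPM. Summed striatal markers (8 genes) were 348 to 385 CPM in vehicle mice, 249 to 319 at 24 h and 309 to 656 at 48 h, and at 7 days 665, 1807, 418 and 1361 CPM in mice 1 to 4. Whatever set these shares apart and the treatment cannot be told apart at 24 h and 48 h, where all 8 mice had the higher 18S share.

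In vehicle mice the 7 genes spanned a wide range of levels. Compared per length of exon (RPKM), Mef2c was highest at 63.3 ± 5.65 (SD, n = 4) and Calb1 followed at 52.5 ± 3.32, and the mice of these neighbours did not overlap. Pou3f2 at 7.54 ± 1.82 and Rasgrf2 at 7.33 ± 1.01 came next and overlapped each other. Rorb at 3.52 ± 1.14 and Cux1 at 3.45 ± 1.05 also overlapped each other. Cux2 was lowest at 1.08 ± 0.200, below every mouse's Cux1. Among 13223 protein-coding genes tested, 95.3% had a lower vehicle RPKM than Mef2c and 18% a lower one than Cux2.

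After DOI, Rasgrf2 moved up in that order, and Cux2 remained the lowest in every group. At 24 h Rasgrf2 reached 14.9 ± 3.13 RPKM (n = 4) and at 48 h 16.5 ± 3.89, in both groups above every mouse's Pou3f2 (means 7.87 ± 2.81 and 6.96 ± 2.90). Cux2 reached 3.21 ± 0.711 RPKM at 24 h and 3.22 ± 1.02 at 48 h, where its mice overlapped those of Cux1 (3.92 ± 1.23 and 3.82 ± 0.761). At 7 days Calb1 (46.2 ± 11.3 RPKM) and Mef2c (43.4 ± 10.7 RPKM) stood in the reverse order of vehicle and overlapped.

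**Figure D1:**
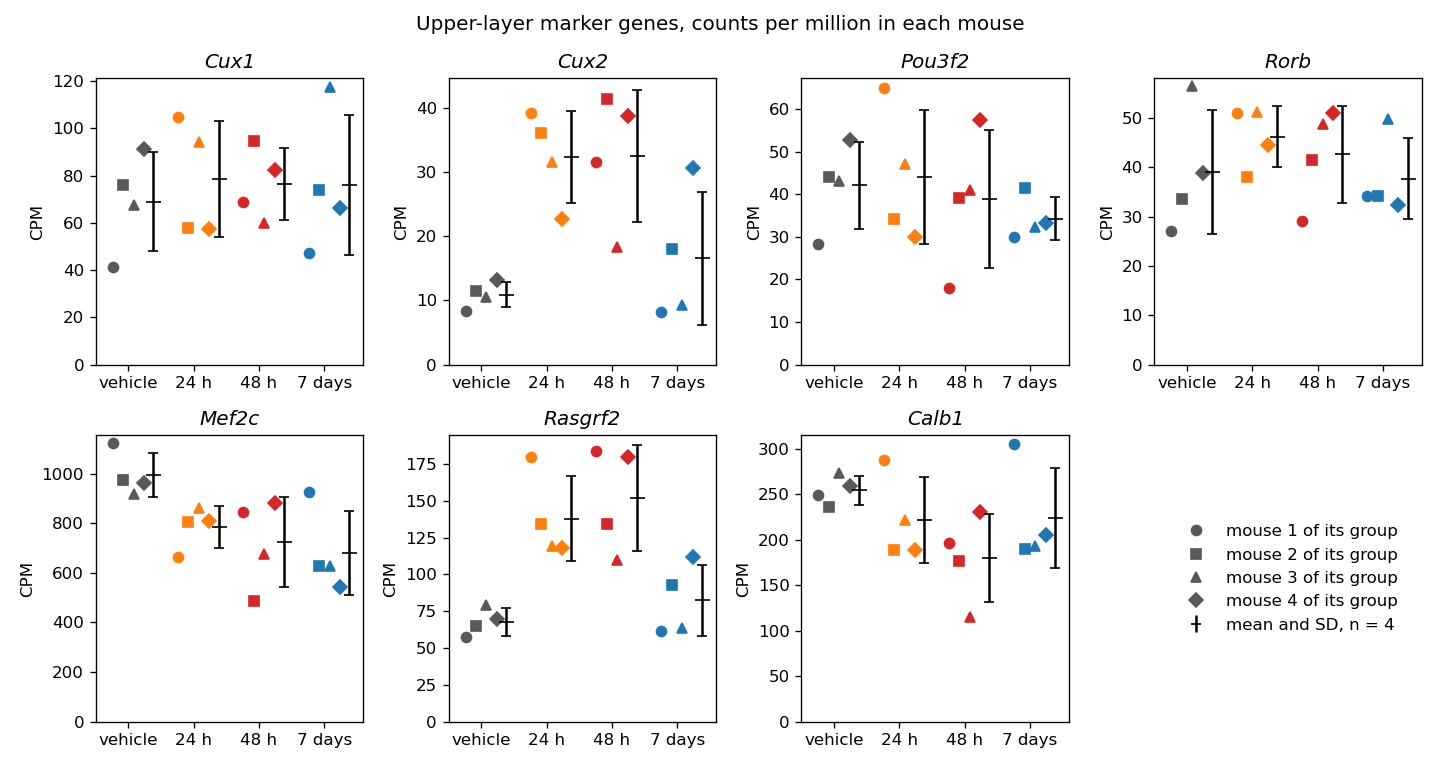
Level of each of the 7 genes in each of the 16 mice, in CPM on a linear axis from 0, with 1 marker shape per mouse number and the mean with its SD (n = 4) to the right of each group. Cux2 and Rasgrf2 are higher in all mice at 24 h and 48 h than in any vehicle mouse, Mef2c is lower in all of them, and Cux1, Pou3f2 and Rorb overlap between groups.

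The first comparison asked which of the 7 genes differed from vehicle 24 h and 48 h after DOI. Cux2 and Rasgrf2 rose at both times, and the other 5 genes did not pass the test at either. The quasi-likelihood test of edgeR was used, with p-values adjusted by Benjamini-Hochberg over all 17941 genes and a threshold of 0.05. Of all genes tested, 24.2% passed at 24 h and 30.1% at 48 h, and 13.8% and 16.8% passed as higher, so 2 of 7 called at each time is a share near that of all genes. With 1 mouse left out in turn, 2569 to 3954 of all genes passed at 24 h and 3556 to 4872 at 48 h, against 4346 and 5395 with all mice, while Cux2 and Rasgrf2 passed in each of these fits. The fewest were without 24 h mouse 4 and without vehicle mouse 1, and without vehicle mouse 2 the counts were 2639 and 3616. The median log2 fold change of the 7 genes was 0.19 at 24 h and 0.13 at 48 h, beside 0.03 and 0.02 over all genes tested. All comparisons with vehicle share the same 4 vehicle mice.

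Cux2 stood at 8.40, 11.5, 10.5 and 13.2 CPM in vehicle mice 1 to 4. At 24 h it stood at 39.1, 36.2, 31.6 and 22.7 CPM. At 48 h it stood at 31.6, 41.3, 18.4 and 38.7 CPM. Every DOI mouse at these times was above the highest vehicle mouse, and the lowest of the 8 was mouse 3 at 48 h. In raw counts, vehicle mice had 89 to 136 counts on Cux2, 24 h mice 192 to 257 and 48 h mice 124 to 291, the DOI groups in libraries with smaller totals. The raw count of 48 h mouse 3 lay within the vehicle range. The log2 fold change was 1.57 ± 0.36 (SE) at 24 h, or 2.97-fold, with an adjusted p of 0.00651 in edgeR's test. It was 1.57 ± 0.36 at 48 h, or 2.98-fold, with an adjusted p of 0.00520.

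Cux1, the paralog of Cux2, stood at 41.2, 75.8, 67.6 and 91.4 CPM in vehicle mice 1 to 4. At 24 h it stood at 104.8, 57.7, 94.2 and 57.5 CPM, and at 48 h at 68.7, 94.6, 60.0 and 82.6 CPM. The groups overlapped in part. The 24 h mice 1 and 3 and the 48 h mouse 2 lay above every vehicle mouse, and the lowest of these 12 values was vehicle mouse 1. Its log2 fold change was 0.19 ± 0.29 (SE) at 24 h and 0.15 ± 0.29 at 48 h, with adjusted p of 0.657 and 0.721 in edgeR's test. The log2 ratio of Cux2 to Cux1 CPM was -2.76 to -2.26 in vehicle mice, -1.57 to -0.67 at 24 h and -1.70 to -1.09 at 48 h. The ratio was thus higher in each of the 8 mice at 24 h and 48 h than in any vehicle mouse. It is given as a description, without a test of the difference between the paralogs.

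Rasgrf2 stood at 57.1, 64.7, 79.4 and 69.8 CPM in vehicle mice 1 to 4. At 24 h it stood at 179.6, 134.2, 119.4 and 117.6 CPM. At 48 h it stood at 183.5, 134.4, 109.7 and 180.0 CPM. The 8 DOI mice were above all 4 vehicle mice, and mouse 3 at 48 h was again the lowest of the 8. The log2 fold change was 1.02 ± 0.22 (SE) at 24 h, or 2.03-fold, with an adjusted p of 0.00533 in edgeR's test. It was 1.17 ± 0.23 at 48 h, or 2.24-fold, with an adjusted p of 0.00235.

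The rises of Cux2 and Rasgrf2 moved with the 18S pseudogene share between groups. At 24 h the mouse with the lowest 18S share, mouse 1 at 0.328%, had the highest Cux2 and the highest Rasgrf2, and mouse 4, with the highest share at 1.57%, had the lowest of both. At 48 h the mouse with the highest share, mouse 1 at 1.66%, had the highest Rasgrf2, and the mouse with the lowest share, mouse 2 at 0.523%, had the highest Cux2. At 7 days the mice with the higher shares, mice 2 and 4, had the higher values of both genes. With the log2 18S share as a covariate, the log2 fold changes were 0.50 for Cux2 and 0.49 for Rasgrf2 at 24 h, with adjusted p of 0.968 and 0.961 in edgeR's test. At 48 h they were 0.44 and 0.58, with adjusted p of 0.996 for both. In that fit 0 of all genes passed at 24 h or 48 h, and the 18S shares of vehicle mice and of these groups do not overlap. With the mitochondrial share as a covariate, Cux2 and Rasgrf2 passed at 24 h but not at 48 h, where the log2 fold changes were 1.26 and 0.93 with adjusted p of 0.248 and 0.194. Both genes passed at 24 h and 48 h in library 1 alone and in library 2 alone, and with each mouse of the groups compared left out in turn. Summed striatal markers ran from 249 to 319 CPM at 24 h and from 309 to 656 CPM at 48 h, against 348 to 385 CPM for vehicle. The part of striatal nuclei in the levels of Cux2 and Rasgrf2 was not tested.

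**Figure D2:**
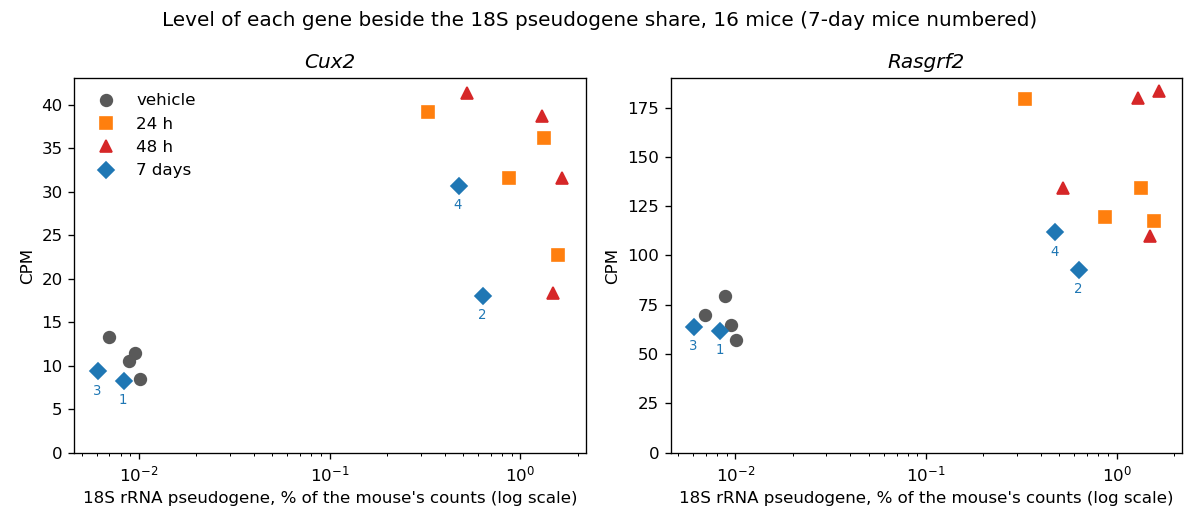
CPM of Cux2 and Rasgrf2 (vertical axes, linear from 0) against the percent of counts on the 18S pseudogene (horizontal log axis), 1 point per mouse, with groups by colour and shape and the 7-day mice numbered. Vehicle mice and 7-day mice 1 and 3 lie at a share near 0.01%, and the other mice lie between 0.328% and 1.66% with higher levels of both genes.

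Mef2c stood at 1123, 975, 919 and 962 CPM in vehicle mice 1 to 4. It stood at 663, 804, 863 and 811 CPM at 24 h, at 847, 487, 677 and 883 CPM at 48 h, and at 927, 627, 628 and 543 CPM at 7 days. All mice at 24 h and 48 h were below the lowest vehicle mouse, and at 7 days mouse 1 lay within the vehicle range. Groups without overlap were common: of all genes tested, 35.7% showed none between vehicle and 24 h, 38.1% between vehicle and 48 h, and 5.85% between vehicle and 7 days. Mef2c had a log2 fold change of -0.34 ± 0.20 (SE) at 24 h, -0.46 ± 0.20 at 48 h and -0.55 ± 0.20 at 7 days. None passed edgeR's test, with adjusted p of 0.224, 0.0914 and 0.189. Without 7-day mouse 1 the 7-day value was -0.74 with an adjusted p of 0.0328, and limma voom with quality weights called the 48 h value (-0.50, adjusted p = 0.0123).

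Calb1 stood at 249, 236, 274 and 259 CPM in vehicle mice 1 to 4. It stood at 288, 189, 222 and 189 CPM at 24 h, at 196, 176, 115 and 231 CPM at 48 h, and at 305, 190, 194 and 206 CPM at 7 days. Only the 48 h mice lay wholly below the vehicle mice. For Calb1 the log2 fold change was -0.20 ± 0.21 (SE) at 24 h, -0.50 ± 0.21 at 48 h and -0.19 ± 0.21 at 7 days, with adjusted p of 0.519, 0.0823 and 0.689 in edgeR's test. Without 48 h mouse 4 the 48 h value was -0.66 with an adjusted p of 0.0429, in a fit of vehicle and 48 h alone it was -0.49 with 0.0467, and limma voom with quality weights gave -0.60 with 0.00779.

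Rorb stood at 27.1, 33.5, 56.5 and 38.7 CPM in vehicle mice 1 to 4. It stood at 51.0, 38.1, 51.2 and 44.5 CPM at 24 h, at 29.1, 41.5, 48.8 and 51.1 CPM at 48 h, and at 34.2, 34.1, 49.9 and 32.3 CPM at 7 days. Vehicle mouse 3 was the highest of the 16, and every group overlapped every other. Rorb had a log2 fold change from vehicle of 0.25 ± 0.24 (SE) at 24 h, 0.13 ± 0.24 at 48 h and -0.05 ± 0.24 at 7 days, with adjusted p of 0.465, 0.706 and 0.931 in edgeR's test.

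Pou3f2 stood at 28.3, 44.1, 43.2 and 52.8 CPM in vehicle mice 1 to 4. It stood at 64.9, 34.1, 47.0 and 29.9 CPM at 24 h, at 18, 39.2, 41.1 and 57.4 CPM at 48 h, and at 29.9, 41.5, 32.3 and 33.3 CPM at 7 days. The groups overlapped, and the lowest and highest of the 16 values were both in DOI mice, mouse 1 at 48 h and mouse 1 at 24 h. Pou3f2 had a log2 fold change from vehicle of 0.06 ± 0.30 (SE) at 24 h, -0.11 ± 0.30 at 48 h and -0.30 ± 0.30 at 7 days, with adjusted p of 0.896, 0.797 and 0.641 in edgeR's test. With the mitochondrial share as covariate the 48 h value was -0.85. Over all alternatives the log2 fold changes of Cux1 reached 0.72 at both 24 h and 48 h and those of Rorb 0.66 and 0.57, each with the 18S share as covariate, and none of these passed.

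**Figure D3:**
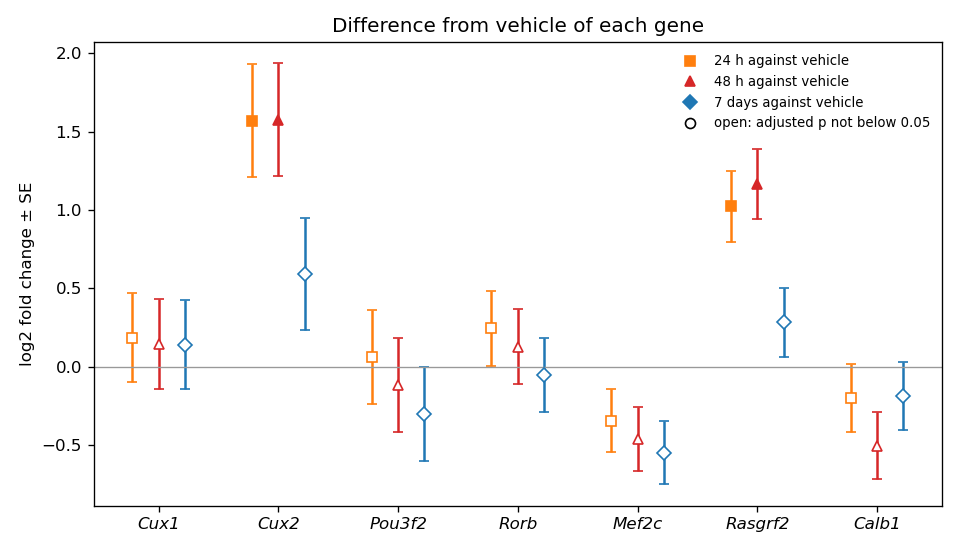
Log2 fold change of each of the 7 genes from vehicle at 24 h, 48 h and 7 days (vertical axis, with the SE as bars), from edgeR's fit over the 4 groups. Filled symbols, for Cux2 and Rasgrf2 at 24 h and 48 h, mark an adjusted p below 0.05, and the 3 values of Mef2c lie below 0 with open symbols.

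The second question was whether the differences remained 7 days after the injection. None of the 7 genes passed edgeR's test against vehicle at 7 days. Of all genes tested, 0 (0%) passed, while 3012 had an unadjusted p below 0.05 and DESeq2 called 796. Without 7-day mouse 1 the count was 1268, without 7-day mouse 3 it was 1130, and with no filter on low counts it was 958. At an unadjusted p below 0.05, 1 of the 7 genes passed, Mef2c, and DESeq2 called 0 of the 7. Cux2 stood at 8.21, 18, 9.34 and 30.6 CPM in 7-day mice 1 to 4, and Rasgrf2 at 61.7, 92.8, 63.9 and 111.8 CPM. For both genes mice 1 and 3 lay below the highest vehicle mouse and mice 2 and 4 above every vehicle mouse. Mice 2 and 4 were also the 7-day mice with the higher 18S share and the higher striatal markers, and the part of striatal nuclei in the result was not tested. Cux1 stood at 47.2, 74.0, 117.3 and 66.3 CPM in the same mice, where the highest value was that of mouse 3 and not of mice 2 or 4. The log2 fold change from vehicle was 0.59 ± 0.36 (SE) for Cux2, 0.28 ± 0.22 for Rasgrf2 and 0.14 ± 0.29 for Cux1, with adjusted p of 0.418, 0.544 and 0.834 in edgeR's test. With 1 mouse left out it ran from 0.12 to 0.81 for Cux2 and from 0.10 to 0.39 for Rasgrf2, both lowest without 7-day mouse 4. With the 18S share as covariate it was -0.023 for Cux2 and 0.011 for Rasgrf2.

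Between the DOI times, none of the 7 genes passed edgeR's test. Of all genes tested, 0 (0%) passed between 48 h and 24 h, 0 (0%) between 7 days and 48 h, and 0.00557% between 7 days and 24 h. Unadjusted p-values below 0.05 were found for 338, 2959 and 2555 genes in these contrasts, and DESeq2 called 0, 432 and 393. At an unadjusted p below 0.05, 0 of the 7 genes passed between 48 h and 24 h, and 2 of 7, Cux2 and Rasgrf2, passed in each of the other contrasts. Cux2 differed by -0.98 ± 0.35 (SE, log2) between 7 days and 48 h and by -0.97 ± 0.35 between 7 days and 24 h, with adjusted p of 0.201 and 0.231. Rasgrf2 differed by -0.88 ± 0.22 between 7 days and 48 h and by -0.74 ± 0.22 between 7 days and 24 h, with adjusted p of 0.132 and 0.174. Each 7-day mouse was below the mean of the 48 h mice and of the 24 h mice for both genes. Without 7-day mouse 4 both genes passed in both contrasts, with log2 differences of -1.46 and -1.45 for Cux2 (adjusted p = 0.0373 and 0.0417) and of -1.06 and -0.92 for Rasgrf2 (adjusted p = 0.0333 and 0.0474). In those fits 608 and 331 of all genes passed, and without 7-day mouse 2 it was 437 and 318. DESeq2 called Rasgrf2 between 7 days and 48 h (adjusted p = 0.0196). Tested over all 4 groups at once, Cux2 (adjusted p = 0.0117) and Rasgrf2 (adjusted p = 0.00538) passed, beside 18.8% of all genes (3380, and 1472 to 4506 with a mouse left out).

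Structure and neighbours differed among the 7 genes. Cux2 and Rasgrf2 span 193737 and 251257 bases. Of the genes that did not pass, Cux1 spans 319356, Rorb 180592 and Mef2c 163047. Calb1 spans 26801 bases and Pou3f2 5587. Of 2179 protein-coding genes tested with a span of at least 100 kb, 16.1% passed as higher at 24 h and 22.9% at 48 h, against 10.4% and 12.0% of 11044 shorter ones. The part of gene length in the levels of Cux2 and Rasgrf2 was not tested. Reads were counted without regard to strand, and only Cux1 shared exonic bases with another gene, 394 bases (1.97% of its exons) with Gm16599 on the opposite strand, which had at most 21 counts in a group. Gm38082 is a feature of 1 exon inside Cux1 on the same strand that shares no exonic base with Cux1. Gm38082 had 218 raw counts in the vehicle mice together and 533, 683 and 493 at 24 h, 48 h and 7 days. Depth differed between these groups. At 7 days, mice 2 and 4 had 207 and 209 of these counts, or 23.2 and 29.2 CPM. Mice 1 and 3 had 22 and 55, or 1.86 and 6.42 CPM, within the vehicle range of 1.13 to 7.10 CPM. The log2 fold change of Gm38082 was 1.69 ± 0.61 (SE) at 24 h, 2.21 ± 0.62 at 48 h and 1.44 ± 0.61 at 7 days. Adjusted p was 0.0509, 0.0140 and 0.241 in edgeR's test, so only the 48 h value passed. The exons of Cux1 did not pass at any of these times.

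A further 19 genes linked to upper-layer neurons included calls in both directions. Of the 18 tested, 2 rose and 0 fell at 24 h, and 3 rose and 1 fell at 48 h, with a median log2 fold change of 0.11 and -0.12. The called shares of all genes were 24.2% at 24 h and 30.1% at 48 h, so these counts are at or below the background. Mdga1, a cell adhesion molecule of migrating upper-layer neurons, rose from 0.786 ± 0.192 CPM (SD, n = 4) in vehicle mice to 2.41 ± 0.988 at 24 h and 3.47 ± 1.41 at 48 h. Those levels rest on 6 to 9 counts per vehicle mouse. Unc5d, a netrin receptor, rose from 41.4 ± 8.51 to 87.4 ± 35.5 and 85.5 ± 17.7 CPM. Adamts2, a procollagen protease, passed only in the 48 h test, from 1.78 ± 0.500 to 5.44 ± 2.78 CPM (2.36 ± 2.04 at 24 h, with the difference between the times not passing). At 7 days 0 of the 18 passed, with a median log2 fold change of -0.07. The values there were 1.83 for Mdga1, 1.51 for Adamts2 and 1.03 for Unc5d. All 7-day mice lay above every vehicle mouse for Mdga1 and Adamts2, and 5.85% of all genes showed no overlap at 7 days. Inhba, which encodes a subunit of activin, fell at 48 h from 35.6 ± 8.19 to 20.8 ± 4.25 CPM (adjusted p = 0.0183 in edgeR's test). These calls were not stable to single mice: with 1 mouse left out, 0 to 1 of the 18 rose at 24 h, and 1 to 4 rose and 0 to 1 fell at 48 h. Mdga1 at 48 h passed in all 8 such fits, while its 24 h call was lost in 7 of 8 (adjusted p up to 0.0920), that of Unc5d in 4 of 8 (up to 0.0820), and at 48 h that of Adamts2 in 7 of 8 (up to 0.117), that of Inhba in 2 of 8 (up to 0.0766) and that of Unc5d in 2 of 8 (up to 0.0694).

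Among deep-layer genes, 2 of 13 tested rose and 1 fell at each of 24 h and 48 h, with median log2 fold changes of 0.21 and 0.10. That is a share near the 24.2% and 30.1% of all genes called. Tbr1, a T-box factor of corticothalamic neurons, rose from 42.6 ± 4.78 CPM (SD, n = 4) to 75.9 ± 29.8 and 77.5 ± 13.8. Ntsr1, a neurotensin receptor of layer 6 cells, rose at 24 h from 4.06 ± 1.28 to 10.8 ± 2.97 CPM and stood at 9.43 ± 2.75 at 48 h (adjusted p = 0.0509 in edgeR's test). Fezf2, a selector of subcerebral neurons, rose at 48 h from 22.2 ± 4.33 to 35.0 ± 8.36 CPM. Tle4, a corepressor of corticothalamic neurons, fell from 102.8 ± 12.4 CPM to 57.6 ± 5.89 and 55.4 ± 15.0. With 1 mouse left out, Tle4 passed in all 8 fits at each time, but 0 to 2 deep-layer genes rose at each time. The call of Tbr1 was lost in 6 of 8 fits at 24 h (adjusted p up to 0.154) and 6 of 8 at 48 h (up to 0.0673), that of Ntsr1 at 24 h in 7 of 8 (up to 0.0926) and that of Fezf2 at 48 h in 5 of 8 (up to 0.119). No difference between the layer lists was tested.

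Of 8 tested relatives of the 7 genes, 0 passed at 24 h and 1 rose at 48 h, beside 24.2% and 30.1% of all genes called. That gene was Rasgrf1, the paralog of Rasgrf2, which stood at 513.3 ± 82.9 CPM in vehicle mice (SD, n = 4), 695.2 ± 157.1 at 24 h and 814.7 ± 100.5 at 48 h. Its log2 fold change at 48 h was 0.67 ± 0.19 (SE, adjusted p = 0.0161 in edgeR's test), smaller than that of Rasgrf2, with no test of the difference, and the call was lost without vehicle mouse 3 or without 48 h mouse 2 (adjusted p up to 0.0576). Among MEF2 factors, Mef2a stood at 98.8, 106.7, 118 and 112 CPM and Mef2d at 6.57, 9.34, 8.71 and 6.84 CPM as group means of vehicle, 24 h, 48 h and 7 days, and Mef2b was too low to test at 0.264 to 0.329 CPM. Rora, the relative of Rorb, stood at 118.4, 116.3, 122.3 and 104.4 CPM. Among POU factors, group means in the same order were 7.62, 3.02, 4.55 and 4.93 CPM for Pou3f1, 32.1, 25.1, 23.0 and 25.7 CPM for Pou3f3 and 1.28, 0.850, 1.91 and 3.29 CPM for Pou3f4. Calb2 (calretinin) stood at 1.41, 0.851, 0.752 and 0.593 CPM.

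Among regulators of MEF2 factors, 3 class IIa histone deacetylases rose and 2 signalling genes fell, while Mef2a, Mef2c and Mef2d did not pass. Class IIa histone deacetylases bind MEF2 proteins and repress their targets, and the phosphatase calcineurin and the kinases p38 and ERK5 act on MEF2. Of 10 such genes, 3 rose and 2 fell at both 24 h and 48 h, with median log2 fold changes of 0.37 and 0.36, beside 24.2% and 30.1% of all genes called in either direction. Hdac7 rose from 7.84 ± 2.31 CPM (SD, n = 4) to 21.8 ± 4.52 and 22.6 ± 5.43, Hdac5 from 20.9 ± 4.51 to 43.1 ± 6.29 and 45.3 ± 2.72, and Hdac4 from 109.6 ± 5.24 to 168.3 ± 23.1 and 180.5 ± 8.73. Hdac9 did not pass at 63.1 ± 8.35, 57.7 ± 6.03 and 61.9 ± 2.88 CPM. Ppp3r1, the regulatory subunit of calcineurin, fell from 748.9 ± 99.5 CPM to 224.8 ± 86.4 and 204.9 ± 83.7, while its catalytic subunits Ppp3ca and Ppp3cb did not pass. Mapk14 (p38 alpha) fell from 101.2 ± 4.52 CPM to 46.4 ± 1.99 and 51.6 ± 19.2, and its 48 h call was lost in 4 of 8 fits with a mouse left out (adjusted p up to 0.0726). With the 18S share as covariate the log2 fold change of Mapk14, 24 h against vehicle, was 0.20 and the log2 fold change of Mapk14, 48 h against vehicle, was 0.43, the opposite direction. At 7 days 0 of the 10 passed edgeR's test and DESeq2 called 1.

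**Figure D4:**
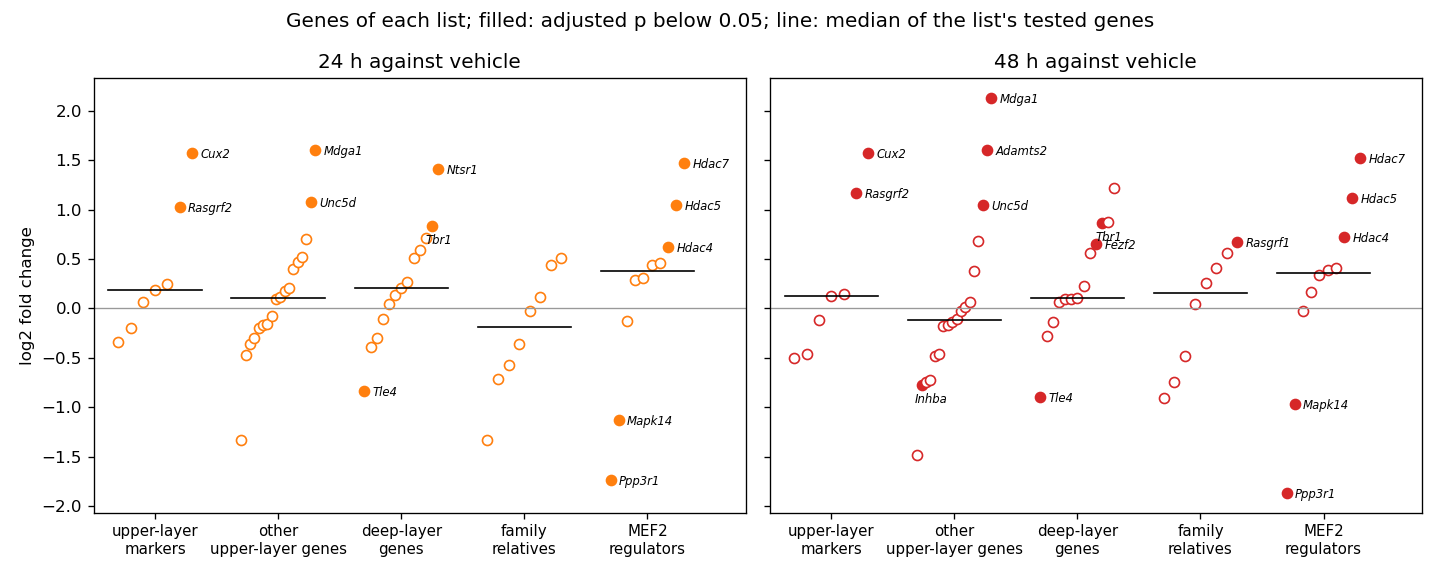
Log2 fold change from vehicle at 24 h (left) and 48 h (right) of each tested gene in 5 lists, 1 circle per gene, filled and named where the adjusted p is below 0.05, with a line at each list's median. Each list has circles on both sides of 0 at 48 h, and the medians lie between -0.19 and 0.37.

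Markers of neuron classes also moved in both directions beside these results. The called shares of all genes, 24.2% at 24 h and 30.1% at 48 h, stand beside each marker list here. Among 6 markers listed for excitatory neurons, 2 rose at each time, a share near that of all genes. Camk2a, a kinase subunit of excitatory neurons, rose from 180.1 ± 31.5 CPM (SD, n = 4) to 1405 ± 652 and 1397 ± 324.1, and Rbfox3, which encodes NeuN and is expressed by most neuron classes, rose from 56.4 ± 9.01 to 98.8 ± 12.5 and 99.4 ± 10.9. Listed markers apart from Camk2a summed to 280 to 322 CPM in vehicle mice, 270 to 331 at 24 h and 247 to 307 at 48 h, which overlapped. Slc17a7, the vesicular glutamate transporter of cortical excitatory neurons, stood at 141.5 ± 19.8, 81.5 ± 21.7 and 82.7 ± 14.2 CPM and did not pass. Among 8 interneuron markers, Gad1 fell from 631.9 ± 82.5 CPM to 354.1 ± 71.9 and 415.5 ± 117.7, Gad2 fell at 24 h from 258.2 ± 38.2 to 167.2 ± 22.2, and Slc32a1, which encodes the vesicular GABA transporter, rose from 4.07 ± 0.537 to 8.73 ± 1.39 and 11.2 ± 0.750. The median log2 fold change of the 8 interneuron markers was 0.37 at 24 h and 0.53 at 48 h, above 0. Of those that did not pass, Sst had 0.70 and 0.74, Vip 0.77 and 0.74, Npy 0.49 and 0.47, Lhx6 0.24 and 0.61 and Pvalb -0.24 and -0.03. Of the striatal markers, Drd1 fell at 24 h from 40.5 ± 5.05 to 21.7 ± 6.32 CPM, Ppp1r1b fell at 24 h from 39.1 ± 13.8 to 18.9 ± 4.74, and Rgs9 rose at 48 h from 6.56 ± 1.42 to 22.6 ± 13.7. Of the glial markers, Mbp fell at 24 h from 113.9 ± 33.6 to 63.9 ± 6.50 CPM, and the other glial markers tested did not pass. With 1 mouse left out, Camk2a and Rbfox3 passed in all 8 fits at each time, Gad1 in all 8 at 24 h and Slc32a1 in all 8 at 48 h. The 24 h call of Slc32a1 was lost in 8 of 8 (adjusted p 0.0592 to 0.0998), those of Gad1 at 48 h, Gad2, Ppp1r1b and Rgs9 in 6 of 8 each, that of Mbp in 7 of 8 and that of Drd1 in 4 of 8 (adjusted p up to 0.171). With the 18S share as covariate none of these passed at 24 h or 48 h, and several turned direction. The log2 fold change of Camk2a, 24 h against vehicle, was then -0.081 and the log2 fold change of Camk2a, 48 h against vehicle, -0.19, where it was 2.96 at both times without the covariate. In the same fit the log2 fold change of Slc32a1, 24 h against vehicle, was -0.48 and the log2 fold change of Slc32a1, 48 h against vehicle, -0.22, where it was 1.10 and 1.46. Rgs9 and Mbp turned direction as well. Whether a change in the mix of nuclei had a part in the levels of Cux2 and Rasgrf2 was not tested.

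The genes whose pattern over the 16 mice was closest to each of the 7 were found among 13216 other protein-coding genes, as the smallest root-mean-square difference of mean-centred log2 CPM. For Cux2 they were Pknox2, a TALE homeodomain factor, at 0.285 and Gak, a kinase of clathrin uncoating, at 0.309, against a spread of Cux2 about its own mean of 0.827. Pknox2 had group means of 18.7, 52.2, 62.2 and 30.5 CPM in vehicle, 24 h, 48 h and 7 days, and Gak 34.9, 112, 110 and 60.3 CPM. For Rasgrf2 they were Uhrf1bp1l and Ube2e3, a ubiquitin-conjugating enzyme, both at 0.203 against its own spread of 0.561. For Mef2c they were Atxn10 (0.139) and 6030458C11Rik (0.150), and for Calb1 Mrpl3 (0.191) and Lysmd2 (0.196), against own spreads of 0.325 and 0.330. For Cux1 they were Cttnbp2 (0.251) and Epb41l5 (0.262), for Pou3f2 Mylip (0.266) and Cntn3 (0.270), and for Rorb Epb41l4b (0.191) and Ptpn3 (0.214), against own spreads of 0.400, 0.436 and 0.317.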

How the data were processed

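Nuclear RNA of NeuN-sorted nuclei was sequenced in 32 libraries of 16 mice (SMART-seq2 and Nextera XT, per the design text). H3K27ac samples of the same series were not analysed here, and RNA of 4 of the 6 mice per group that the design text gives was used. Raw read counts were deposited for each gene, made by the authors with featureCounts 2.0.0, per the file headers, over the exons of GRCm38 gene IDs with no option for strand, pairs, multi-mapping or overlapping features. The aligner of the RNA reads is not given in the sources used here. The headers give mouse number 6 to 3 mice, which are numbered here by their labels.

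The 2 libraries of a mouse were summed. They differed by more than sampling noise (chi-square per degree of freedom 1.39 to 3.06), and library totals were 2763704 to 7436451 counts. Genes passing filterByExpr (17941) were fitted over 4 groups with edgeR 4.0.16 (TMM, glmQLFit, glmQLFTest) in R 4.3.3, with Benjamini-Hochberg adjustment, and the step was tested on simulated data. The SE is the absolute log2 fold change over the square root of F, and log2 CPM used a prior count of 2. RPKM used exon lengths of the files. P-values measure the spread between mice, which the labels number separately. Counting limits (3 counts) cover counting error only, since reads carry no molecular identifiers.

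The 7 genes and all gene lists were chosen with earlier results of these data known. Named from each other list were up to 4 genes with the largest change among those past the threshold at 24 h or 48 h, with relatives of the 7 genes, and Hdac4, Hdac9, Ppp3ca, Ppp3cb, Slc17a7 and Gm38082 were added after their values were seen. Alternatives were DESeq2 1.42.0, limma 3.58.1 voom with quality weights, other scalings and filters, protein-coding genes only, each library alone, a fit of the compared groups alone, covariates, a block for mouse number and each mouse left out. Promoter windows came from a RefSeq table (GRCm38.p6), and windows were set against exon positions of the count files, which use the same assembly.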

Additional observations from a re-analysis of the deposited data

Results flagged for a closer look

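In 2 of 28 sets of 4 mice (7 genes in 4 groups), 1 mouse stood apart from the other 3 by Dixon's ratio, and chance gives about 1 in 20 sets. Rorb in 7-day mouse 3 was 49.9 CPM, with the next mouse at 34.2 CPM (ratio 0.892). Calb1 in 7-day mouse 1 was 305.5 CPM, with the next mouse at 205.5 CPM (ratio 0.866). Both were 7-day mice with the low 18S pseudogene share, at 0.00607% and 0.00835%. For Cux2 and Rasgrf2 no mouse stood apart in this way in any group.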

How the results depend on the processing

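Leaving out 1 mouse at a time, Cux2 kept log2 fold changes of 1.46 to 1.70 at 24 h and 1.44 to 1.77 at 48 h, and Rasgrf2 of 0.87 to 1.09 and 1.06 to 1.29, all past the threshold. With the 18S share as covariate 0 of the 7 genes passed at 24 h, at 48 h or in the test over 4 groups, and 0 of all genes passed at 24 h and 48 h. With the mitochondrial share 0 of the 7 passed at 48 h and over 4 groups, with 2263 and 0 of all genes at 24 h and 48 h. The cause was not tested. Limma voom called 4 of the 7 at 48 h, adding Mef2c and Calb1, beside 7784 of all genes there and 7236 at 24 h. Between 7 days and 48 h, DESeq2 called 1 of the 7 and a fit with no filter 1, both Rasgrf2. With a mouse left out, 0 to 1 of the 7 passed at 7 days against vehicle, and 0 to 2 in each of 7 days against 48 h and against 24 h, beside 0 to 1268, 0 to 608 and 0 to 331 of all genes.

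Values that changed sign had not passed for the 7 genes. They were, at 24 h, Cux1 -0.014 (voom), Pou3f2 -0.18 (voom), -0.18 (mitochondrial share) and -0.19 (without the 3 mice of another header number, chosen after seeing the data) and Calb1 0.24 (18S share). The log2 fold change of Pou3f2, 48 h against vehicle, was 0.00597 (library 1), and the log2 fold change of Rorb, 48 h against vehicle, was -0.0155 (library 2) and -0.17 (mitochondrial share). At 7 days they were Cux2 -0.023 and Rorb 0.12 (18S share). With a mouse left out, ranges were -0.034 to 0.31 for Cux1 at 48 h, -0.14 to 0.31 for Cux1 at 7 days, -0.19 to 0.20 for Pou3f2 at 24 h, -0.38 to 0.13 for Pou3f2 at 48 h, -0.011 to 0.35 for Rorb at 48 h, -0.22 to 0.17 for Rorb at 7 days and -0.38 to 0.68 for Adamts2 at 24 h. Adamts2 at 24 h was -0.13 (voom), -0.24 (library 2), -0.22 (18S share) and -0.37 (without those 3 mice). With the 18S share, Inhba at 24 h was -0.16, Ntsr1 at 48 h -0.011, and at 24 h and 48 h Mapk14 was 0.20 and 0.43, Camk2a -0.081 and -0.19, Slc32a1 -0.48 and -0.22, Rgs9 -2.0 and -1.21 and Mbp 0.14 and 0.37. Mbp at 48 h was 0.014 with the mitochondrial share.

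With the mouse number as a replicate block, 2 of the 7 genes passed at 24 h and 2 at 48 h, with Cux2 at 1.63 and 1.54 and Rasgrf2 at 1.01 and 1.14, and 3667 and 4664 of all genes. Deviations of mice with the same number had a mean correlation of -0.036 over 24 pairs, and those with different numbers 0.012 over 72 pairs. The headers give another number to 3 mice, so these values cannot exclude a pairing by number. The main fit took the mice as unpaired.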
